A study of Mus musculus with 5 samples.

Results

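CA3 pyramidal neurons are the excitatory neurons of the hippocampal field between the dentate gyrus and CA1. They were taken as nuclei with at least 1000 detected genes whose score for Nectin3, Itgbl1, Trps1, Arhgef26, Cpne4 and Iyd was at least 1, whose score for the inhibitory genes Gad1, Gad2 and Slc32a1 was below 0.5, and whose score for the CA1 genes Fibcd1, Mpped1 and Man1a was below 1. A score is the mean z-value of the log-scaled UMIs (unique molecular identifiers, 1 per captured RNA molecule) of its genes over all such nuclei. The rule found 1901 of 27681 nuclei. RNA and open chromatin were read from the same nuclei of mouse hippocampus in 5 libraries: wild type, 5xFAD, and 5xFAD carrying an astrocyte MAGL-KO, a neuron MAGL-KO or a global MAGL-KO. Each group was 1 library, and all carried the batch label v3. The labels give no age, strain, sex, Cre driver or number of animals. 5xFAD mice carry human transgenes, APP among them, with familial Alzheimer's disease mutations under mouse Thy1 regulatory sequence, so 4 of the 5 libraries share those transgenes. MAGL, encoded by Mgll, is monoacylglycerol lipase, the main brain enzyme that breaks down the endocannabinoid 2-arachidonoylglycerol.

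CA3 pyramidal neurons receive the mossy fibres of dentate granule cells on large dendritic spines, excite one another through recurrent collaterals and send Schaffer collaterals to CA1. They are known for strong kainate receptor currents at the mossy fibre synapse, for burst firing and for a part in memory recall and in hippocampal seizures. Endocannabinoids made by such neurons act back on presynaptic CB1 receptors, encoded by Cnr1, and reduce transmitter release.

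The wild-type library held 429 CA3 nuclei, the 5xFAD library 338, the astrocyte MAGL-KO library 333, the neuron MAGL-KO library 219 and the global MAGL-KO library 582. All values by library below follow this order. Their share of the nuclei in each library was 8.31% (95% exact interval 7.57 to 9.10), 6.60% (5.93 to 7.31), 5.51% (4.95 to 6.12), 5.46% (4.78 to 6.21) and 7.93% (7.32 to 8.57). The wild-type and global MAGL-KO libraries had the highest shares and their intervals overlapped, as did those of the astrocyte and neuron MAGL-KO libraries, which were lowest. The 5xFAD interval overlapped those of the astrocyte and neuron MAGL-KO libraries as well. Per 100 CA1 nuclei, chosen in the same way by their own genes, there were 82.7, 70.1, 63.4, 58.9 and 82.1 CA3 nuclei. With 1 library per group, dissection, capture and genotype cannot be told apart in these shares, and every interval here and below covers counting error only.

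The CA3 nuclei were deep: the median nucleus held 34177, 34073.5, 27331, 34202 and 28617.5 UMIs, against 14315 to 17560 over all nuclei of a library. Summed UMIs ran from 9547363 in the neuron MAGL-KO library to 21395559 in the global MAGL-KO library. Among nuclei with at least 1000 genes, 431 barcodes were found in more than 1 library, and 0 barcodes were CA3 nuclei in more than 1 library. How many of the 431 were a CA3 nucleus in a single library was not counted. Both Xist nuclei and Y nuclei (those with UMIs of Y-linked genes) were present in every library, so none came from animals of 1 sex. Among CA3 nuclei that could be called, 60.6%, 38.3%, 61.3%, 78.3% and 55.1% were Xist nuclei. Nuclei with both kinds of UMI made up 16.8 to 21.2% of the CA3 nuclei and 10.6 to 15.0% of all nuclei; no doublet caller was run, and each comparison of libraries below was repeated in Xist nuclei and in Y nuclei alone.

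The RNA that chose the nuclei showed the threshold as a gradient. The 245 nuclei with a CA3 score from 0.9 to 1, left out, held 210 CPM (UMIs per 1000000) of Nectin3 and 516 CPM of Grik4, and the 236 members with a score from 1 to 1.1 held 270 and 592 CPM. The 922 members with a score of 1.5 or more held 581 and 912 CPM. The median member scored 1.48. Scores for other classes were not all low: 155 members (8.15%) scored at least 1 for CA2 genes, 163 (8.57%) for hilar mossy cell genes, 95 (5.00%) for astrocyte genes, 94 (4.94%) for deep cortical genes and 60 (3.16%) for vascular and fibroblast genes. In all, 370 members (19.5%) scored at least 1 for a glial, vascular, choroid plexus, Cajal-Retzius, upper cortical, subicular or dentate class. The 1237 members with no such score and without both Xist and Y UMIs are called core members below, a set defined after the values were seen; scores for CA2, mossy cell and deep cortical genes did not remove a nucleus from it.

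Of 5 known CA3 genes outside the rule, 4 were higher in these nuclei than in CA1 and granule nuclei. This is a description and not a test, since RNA chose the nuclei and the list was drawn up with earlier results of these data known. Grik4, the kainate receptor subunit GluK4, was at 665, 746, 813, 894 and 829 CPM in the CA3 nuclei, against 109 to 177 in CA1 and 264 to 427 in dentate granule nuclei. Spock1, a secreted proteoglycan, was at 762, 828, 835, 304 and 836 CPM, against 52.2 to 153 in CA1 and 10.6 to 34.4 in granule nuclei. The neuron MAGL-KO library was low for Spock1, yet its CA3 value still lay above every CA1 and granule value. Rnf182, a ubiquitin ligase, was at 206, 244, 236, 284 and 258 CPM against 69.5 to 92.2 and 73.8 to 85.3, and Bok, a BCL2 family member, at 8.10 to 12.3 CPM against 1.36 to 2.6 and 0.885 to 1.72. Dkk3, a secreted glycoprotein of the Dickkopf family, went the other way against CA1: it was at 93.9 to 113 CPM in CA3 nuclei, 118 to 139 in CA1 and 8.24 to 13.6 in granule nuclei.

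**Figure D1:**
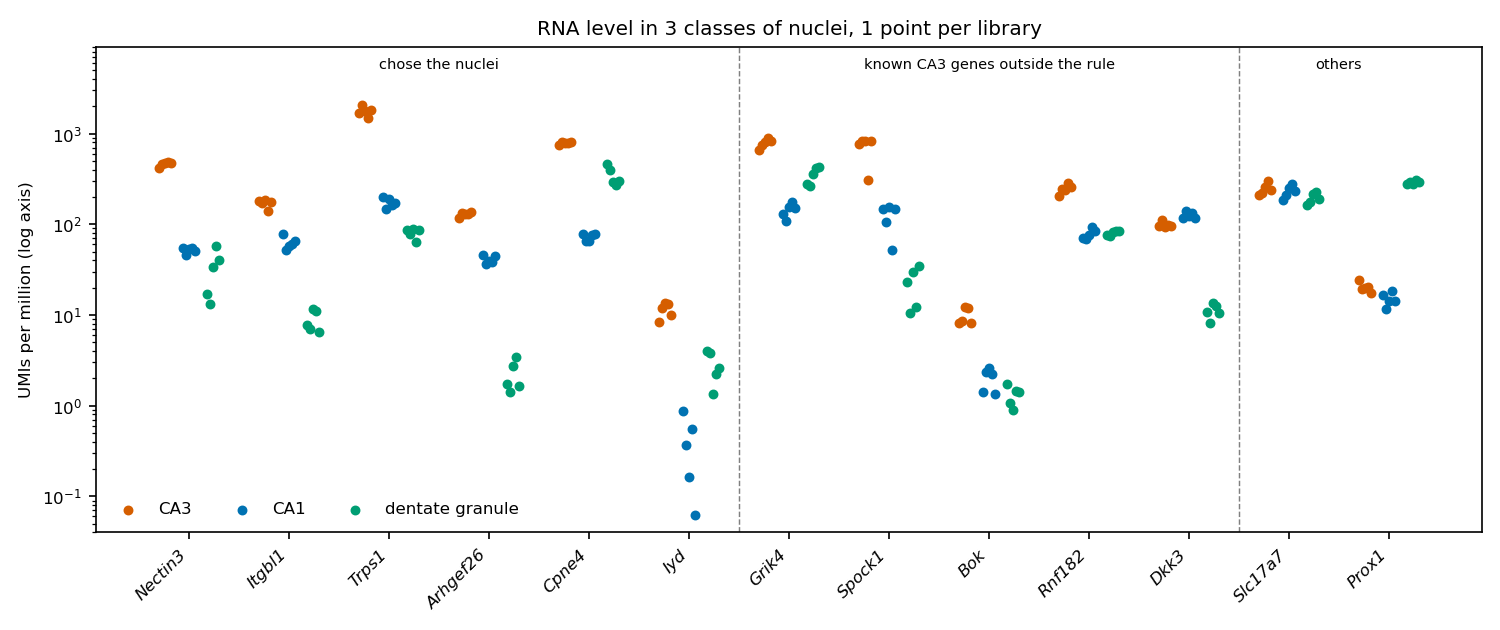
CPM, on a log axis, of 13 genes in CA3, CA1 and dentate granule nuclei, 1 point per library. The 6 genes of the rule, Grik4, Spock1, Bok and Rnf182 lie higher in CA3 than in both other classes, Dkk3 lies highest in CA1, and Prox1 is low in CA3.

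The 6 genes of the rule are given as a description, since they chose the nuclei. Nectin3, an adhesion molecule of puncta adherentia, was at 414, 464, 473, 487 and 472 CPM (CA1 46.0 to 54.9, granule 13.2 to 58.3). Cpne4, a calcium-dependent phospholipid-binding copine, was at 753, 807, 794, 783 and 814 CPM (CA1 65.2 to 78.0, granule 268 to 458). Across the 5 libraries Trps1, a GATA-type transcriptional repressor, spanned 1480 to 2040 CPM, Itgbl1 140 to 186, Arhgef26, a guanine nucleotide exchange factor, 119 to 137, and Iyd, iodotyrosine deiodinase, 8.36 to 13.5. The excitatory transporter gene Slc17a7 was at 208, 219, 261, 299 and 236 CPM, and the dentate transcription factor Prox1 at 17.3 to 24.1 CPM. The 5 dentate granule markers, Prox1 among them, chose the granule nuclei by their score. They summed to 217 to 306 CPM in CA3 nuclei, against 3131 to 3344 in granule nuclei. The inhibitory markers, which the rule held low, summed to 6.03 to 13.2 CPM, against 78.2 to 100 over all nuclei. Both contrasts follow from how the nuclei were chosen. The 6 astrocyte markers summed to 410, 465, 349, 459 and 336 CPM, above the 99.0 to 143 of CA1 nuclei, most of it Slc1a2, the glutamate transporter GLT-1, at 365, 413, 315, 413 and 313 CPM. The endothelial gene Cldn5 was at 0 in 4 libraries and 0.0716 CPM in the 5xFAD library, and the microglial gene Tmem119 did not exceed 0.393 CPM. The lists of these genes were not as low: the 6 vascular and fibroblast markers together summed to 5.37 to 9.34 CPM. CA1 nuclei held 1.24 to 3.59 CPM of them and all nuclei 4.47 to 5.90. The 6 microglial markers summed to 36.4 to 62.0 CPM, against 48.9 to 80.7 over all nuclei.

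Of 11760 genes ranked, 58 were at least 2-fold above both CA1 and granule nuclei in all 5 libraries and 20 at least 2-fold below both. This is the contrast that chose the nuclei, so nothing is tested on it. Mndal, an interferon-inducible DNA-binding protein, held 45 to 62.9 CPM against 0.658 to 3.22 in CA1 and 0.885 to 3.53 in granule nuclei; it belongs to a family of near-identical copies, so its reads may be shared among them. The heparan sulfate sulfotransferase gene Hs3st4 held 1821 to 2277 CPM (CA1 432 to 656, granule 124 to 192) and is 1 of the 3 deep cortical markers, which summed to 1997 to 2454 CPM in CA3. High as well were the glycosyltransferase gene Mgat4c at 2112 to 3064 CPM (514 to 649, 12.6 to 32.5) and the thyrotropin-releasing hormone degrading enzyme gene Trhde at 728 to 938 CPM (131 to 177, 50.4 to 83.3). Fstl5, Phactr2, Ccdc3, Col12a1, Efr3b, Rerg, Luzp2 and Spock1 completed the 12 genes that stood highest once the rule genes were left out. The genes lowest in CA3 were Spon1, an axon guidance protein also named F-spondin, at 44.8 to 67.7 CPM (204 to 250, 210 to 247), and the transcription factor gene Bcl11b at 60.3 to 80.5 CPM (221 to 277, 248 to 267), followed by Zfhx4, Zmat4, Mapk4 and the AMPA receptor auxiliary subunit gene Cnih3.

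Genes of the CA3 synapse are described in the same way. Neto1, the kainate receptor auxiliary subunit, was at 971, 946, 857, 769 and 1095 CPM in CA3 nuclei, above the 239 to 299 of CA1 and the 242 to 347 of granule nuclei, without overlap. Neto2 was at 120 to 144 CPM (79.5 to 100 in CA1, 9.82 to 19.1 in granule nuclei). Grik2, the GluK2 subunit, lay between the others, at 2138 to 2746 CPM against 1361 to 1747 and 3111 to 4064. Among the receptors for AMPA and NMDA, Gria1 overlapped with CA1, at 2478 to 2665 CPM against 2659 to 2922, and Grin3a was lower, at 29.0 to 37.5 CPM against 117 to 125 in CA1. The scaffold gene Homer3 was at 29.8 to 48.6 CPM, against 5.72 to 8.46 and 5.66 to 9.31.

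Of the channel genes, Kcnq5, a subunit of the M-current, was at 4055 to 4552 CPM in CA3, 1009 to 1478 in CA1 and 51.8 to 72 in granule nuclei. The fast delayed rectifier gene Kcnc2 was at 734 to 906 CPM (432 to 532, 6.36 to 26.0), and the P/Q-type calcium channel gene Cacna1a at 771 to 936 CPM (432 to 492, 315 to 362). The ERG-type potassium channel gene Kcnh7 was instead lower in CA3 than in CA1, at 243 to 460 against 1595 to 2377 CPM, and at 315 to 451 CPM in granule nuclei, within the CA3 range.

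Among guidance genes, the netrin receptor gene Unc5c was at 1719 to 2145 CPM in CA3 nuclei (579 to 695 in CA1, 504 to 711 in granule nuclei), and Slit2, a repellent ligand, at 650 to 707 CPM (171 to 300, 94.3 to 171). Its receptor gene Robo1 was at 1023 to 1294 CPM (545 to 625, 172 to 193), and the ephrin receptor gene Ephb1 at 123 to 174 CPM (22.1 to 27.3, 76.8 to 97.1). Adhesion genes of the CA1 to subiculum axis were lower in CA3 than in CA1: Tenm3 at 295 to 342 CPM against 1256 to 1580, and Adgrl2 at 29.2 to 42.9 CPM against 169 to 207. Lrrtm4, a postsynaptic adhesion protein of granule cells, was at 1607 to 2454 CPM in CA3 and 8110 to 10374 in granule nuclei. Of the endocannabinoid genes, Ptgs2, cyclooxygenase-2, was at 13.9 to 17.2 CPM (3.33 to 6.25 in CA1, 5.42 to 13.2 in granule nuclei), and Cnr1 at 62.3 to 98.0 CPM (87.6 to 112, 6.37 to 9.59).

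Open chromatin was not used to choose the nuclei, so it could be tested. Cut sites are the ends of DNA fragments that the transposase releases from open chromatin. They were summed by library and class in 128706 regions that all 5 libraries shared and that passed a filter on low counts. The summed counts were compared between classes with edgeR's quasi-likelihood test, with the library as a block and Benjamini-Hochberg adjustment. Levels are printed as cut-site CPM (cut sites per 1000000 in the shared regions). CA3 differed from CA1 in 54482 regions (42.3% of those tested; 27114 higher, 27368 lower) and from granule nuclei in 82309 (64.0%; 44580 higher, 37729 lower). At 2-fold or more, 13672 regions (10.6%) were higher in CA3 than in CA1 and 12716 (9.88%) lower; against granule nuclei, 33053 (25.7%) were higher and 13904 (10.8%) lower. A set of 6114 regions (4.75%) was 2-fold higher against both classes and 1643 (1.28%) 2-fold lower against both. The share was smallest at promoters: 766 of 19794 promoter regions (3.87%) were 2-fold higher in CA3 than in CA1, against 11.5% of intron regions and 12.6% of intergenic regions. The 3 classes came from the same libraries but differed in depth, with a median of 20148 to 26362 cut sites per CA3 nucleus, 15592 to 21829 per CA1 nucleus and 10694 to 15276 per granule nucleus. The part of depth in these counts was not tested.

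Near the genes of the rule, the share of regions higher in CA3 was above that of all tested regions. Within 100 kb of the 6 rule genes, 36 of 108 tested regions (33.3%) were 2-fold higher in CA3 than in CA1 and 9 (8.33%) lower, beside 10.6% and 9.88% of all tested regions. Near the 5 known CA3 genes outside the rule the counts were 39 of 186 (21.0%) higher and 3 lower, none of the higher ones near Dkk3. Near 11 of the genes with the highest RNA (Spock1 is counted among the known genes) they were 54 of 247 (21.9%) higher and 16 lower. Near the 6 genes with the lowest RNA the order turned: 11 of 227 (4.85%) were higher and 39 (17.2%) lower. Near the 3 CA1 genes of the rule, 4 of 72 were higher and 17 (23.6%) lower. These gene sets were chosen by RNA from the same nuclei, so the counts describe how both readouts lie together in them.

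**Figure D2:**
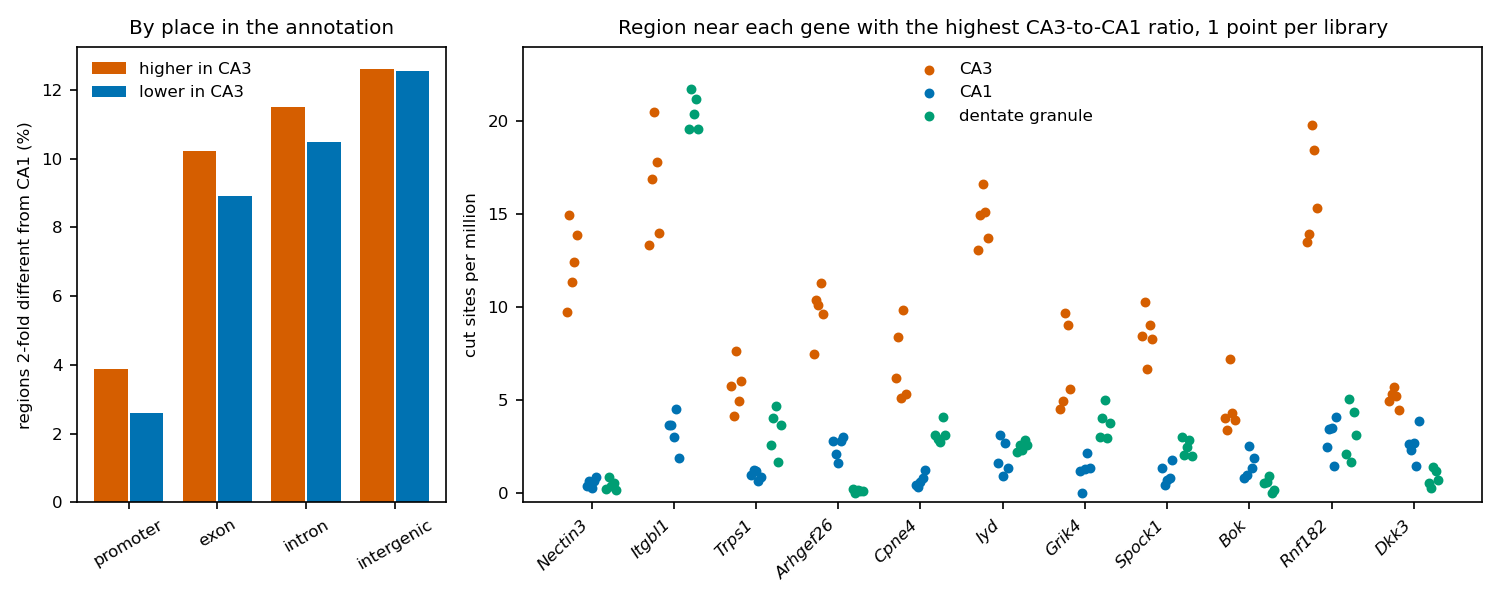
Left, percent of tested regions at least 2-fold higher or lower in CA3 than in CA1 nuclei, by place in the gene annotation; promoters have the smallest share (3.87% higher). Right, cut-site CPM in 1 region near each of 11 genes, the region with the highest CA3-to-CA1 ratio within 100 kb, in CA3, CA1 and dentate granule nuclei, 1 point per library.

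Single regions showed the size of these differences; coordinates are mm10 with GENCODE vM21 genes, and the nearest gene is named for position only. For each marker gene the region with the highest CA3-to-CA1 ratio within 100 kb was taken, so its size is the largest of several. The region chr16:46567173-46568116, intergenic and 68648 bases from Nectin3 (chr16:46387706-46498525, minus strand), held 9.72, 15.0, 11.4, 12.4 and 13.9 cut-site CPM in CA3 nuclei. CA1 nuclei held 0.302 to 0.857 there and granule nuclei 0.183 to 0.869, so the classes did not overlap (log2 fold change 4.39 against CA1, edgeR adjusted p = 1.8e-20, and 4.76 against granule nuclei). In an intron of Spock1, chr13:57854105-57855013 held 8.47, 10.3, 6.66, 9.07 and 8.31 cut-site CPM in CA3 (log2 3.00 against CA1, edgeR adjusted p = 2.6e-14, and 1.66 against granule nuclei). Intron regions were also higher in CA3 than in CA1 at Cpne4 (chr9:104668165-104669239, log2 3.26), Grik4 (chr9:42736555-42737501, log2 2.44), Itgbl1 (chr14:123759777-123760639, log2 2.26) and Arhgef26 (chr3:62435026-62435980, log2 1.93). The Arhgef26 region stood further from granule nuclei, at 6.06, and the Itgbl1 region did not, at -0.43.

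Among all regions, the largest differences from CA1 in the same direction as against granule nuclei were near genes that are not CA3 markers. The region chr7:76357106-76358081 in an intron of Agbl1, a tubulin deglutamylase, held 6.62, 4.96, 7.21, 3.66 and 6.74 cut-site CPM in CA3 and 0 in CA1 nuclei of 4 libraries and 1.01 in the fifth (log2 5.04, edgeR adjusted p = 1.4e-12). The region chr2:84294358-84295346, nearest to Calcrl, the receptor of calcitonin gene-related peptide and adrenomedullin, held 8.30, 8.26, 11.2, 8.11 and 7.96 in CA3 (log2 4.68, edgeR adjusted p = 4.2e-17). Regions nearest to Manea (chr4:27418268-27419222, log2 4.85), Clec2d (chr6:129178861-129179714, log2 4.66) and Tmeff2 (chr1:50395665-50396605, log2 4.64) completed the 5 highest. Of the 5 lowest, chr4:57062009-57062924 in an exon of Epb41l4b, a band 4.1 family protein, held 1.59, 0.472, 0.277, 0.318 and 0.175 in CA3 against 6.83 to 8.95 in CA1 (log2 -3.75); the others were nearest to Ppp3ca (-4.13), Ramp1 (-3.83), Rpl34 (-3.71) and Ralb (-3.67), and their differences from granule nuclei, -0.39 to -1.17, did not pass the test.

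The Nectin3 promoter region with most cut sites held 69.1 to 80.2 cut-site CPM in CA3 and differed by a log2 of 0.19 from CA1; a second one, chr16:46410089-46411079, held 3.50 to 6.74 and was lower than the 8.48 to 12.2 of CA1 (-1.06, edgeR adjusted p = 1.5e-05). The Grik4 promoter region had a log2 of 0.21 against CA1 and did not pass the test (edgeR adjusted p = 0.069). The Cpne4 promoter chr9:104566360-104567123 was higher than in CA1 (log2 2.05, edgeR adjusted p = 9.5e-17) and lower than in granule nuclei (-0.66). Promoter windows (250 bases before the start site) are printed for 3 of the genes with high CA3 RNA that had a promoter region at least 2-fold higher in CA3 than in CA1. Mgat4c had such a region too (chr10:102158527-102159448, log2 1.01) and is not printed. Its promoter region chr10:101681247-101682171 was lower in CA3 than in CA1 (-0.58). The Bok promoter region chr1:93685134-93685939 held 10.9, 11.0, 8.74, 9.55 and 13.7 cut-site CPM in CA3, 2.92 to 5.54 in CA1 and 2.23 to 5.94 in granule nuclei (log2 1.35 against CA1, edgeR adjusted p = 3.0e-08, and 1.25). A second Bok promoter region, chr1:93686244-93687176, held more, 16.5 to 21.6 in CA3, and differed less (log2 0.68 against CA1 and 0.36 against granule nuclei). The Fstl5 promoter region chr3:76074006-76074918 held 9.72, 16, 11.5, 12.1 and 12.6, against 3.71 to 6.83 and 5.08 to 8.25 (log2 1.25, edgeR adjusted p = 1.2e-08, and 0.77). The Mndal region chr1:173880113-173881021 held 18.8, 14.6, 22, 22 and 20.9, above the 8.53 to 9.95 of CA1 (log2 1.07, edgeR adjusted p = 5.9e-11) and overlapping the 15.1 to 21.7 of granule nuclei (-0.06), where Mndal RNA was as low as in CA1.

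The windows come from RefSeq on GRCm38.p6 and are written 5′ to 3′ in the gene's direction; capitals mark a match to one of 6 short motifs searched on both strands. Bok is chr1:93685325-93685574 on the plus strand and holds no match. Fstl5 is chr3:76074311-76074560 on the plus strand and holds 1 CAGATG, the E-box type bound by NEUROD factors. Mndal is chr1:173880188-173880437 on the minus strand and holds a CAGATG and a TGANTCA, the motif of AP-1.
Bok: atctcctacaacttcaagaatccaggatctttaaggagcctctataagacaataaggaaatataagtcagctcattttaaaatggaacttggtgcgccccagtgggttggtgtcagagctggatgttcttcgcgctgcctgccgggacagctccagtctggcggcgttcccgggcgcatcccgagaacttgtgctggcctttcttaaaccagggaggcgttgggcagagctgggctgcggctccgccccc
Fstl5: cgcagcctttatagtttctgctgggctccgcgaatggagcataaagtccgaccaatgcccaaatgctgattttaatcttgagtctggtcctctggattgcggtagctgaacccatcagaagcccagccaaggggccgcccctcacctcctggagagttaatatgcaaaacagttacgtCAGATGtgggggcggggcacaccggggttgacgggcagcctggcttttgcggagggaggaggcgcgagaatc
Mndal: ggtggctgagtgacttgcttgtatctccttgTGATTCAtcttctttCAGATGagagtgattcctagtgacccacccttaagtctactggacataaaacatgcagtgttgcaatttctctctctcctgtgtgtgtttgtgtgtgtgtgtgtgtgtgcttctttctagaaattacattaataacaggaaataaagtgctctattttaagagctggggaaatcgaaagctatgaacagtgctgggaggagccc

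The same 6 motifs were counted in all 32851 windows. CAGATG was in 19.3% of the 280 windows within promoter regions 2-fold higher in CA3 than in CA1, in 16.9% of the 136 windows within regions 2-fold lower, in 9.89% of the 14110 windows within any tested region and in 14.4% of all windows. The shares in the CA3-higher and the CA3-lower windows were thus both above that of the tested windows. The same held for TGANTCA (6.43%, 8.09%, 4.03% and 6.75%, in that order) and for the homeobox core TAATTA (5.00%, 5.88%, 2.22% and 4.84%). It also held for the RFX motif GTTGCCA (4.64%, 5.15%, 3.61% and 3.66%). For CAGGTG, a ZEB-type E-box, it held by a small margin in the CA3-higher windows (15.7%, 18.4%, 15.6% and 17.2%). Only the MEF2 core (CTA and TAG with any 4 bases between) differed, at 1.79%, 4.41%, 2.54% and 3.20%. The pattern was thus not particular to a few of these motifs. A match is a stretch of letters and not a bound site.

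CA3 nuclei held 89.6, 112, 110, 124 and 102 CPM of Mgll (chr6:88724412-88828360, plus strand), the gene named in the knockout labels. The wild-type library was lowest, and of the libraries labelled knockout the astrocyte and global ones lay below 5xFAD and the neuron one above it, with differences below 1.5-fold. In core members Mgll was at 90.5, 109, 114, 128 and 112 CPM, so there each library labelled knockout lay above 5xFAD. Its promoter region chr6:88724136-88725011 held 30.3, 30.3, 36.7, 27.8 and 29.6 cut-site CPM. The labels do not say which part of the gene is deleted, and UMIs from outside that part check nothing, so the groups below are named as the library labelled astrocyte, neuron or global MAGL-KO. Each comparison sets 1 library against 1, with no replicate and no test. A gene counts as past the fold when its CPM, plus 5, differs 1.5-fold or more, among genes with at least 100 UMIs in both libraries together.

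The 5xFAD library against the wild type asks what the transgenes' presence went with in CA3 nuclei. Few genes passed the fold: 14 of 11355 were higher and 42 lower (0.493% in all; 0.123% higher, 0.37% lower). Higher were Thy1, some sterol synthesis genes and the chaperone gene Hsph1, and lower were Vgll3, L3mbtl4 and Pde11a among others. Among the 56, 12 passed the fold in the same direction in Xist nuclei and in Y nuclei.

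Thy1, a surface glycoprotein of neurons (chr9:44043384-44048579), was at 40.3, 94.6, 116, 168 and 107 CPM. The wild-type library was lowest and the 4 libraries with transgenes did not reach down to it. The log2 ratio of 5xFAD to wild type was 1.14 (95% interval 1.02 to 1.26), 1.31 in Xist nuclei and 1.2 in Y nuclei, and it was larger in CA1 (2.6) and granule nuclei (1.97), a difference between classes that was not tested. The Thy1 promoter region chr9:44042860-44043763, looked at after its RNA, held 25.1 cut-site CPM in the wild-type CA3 nuclei (22.4 to 28.2; 300 cuts) and 213, 303, 326 and 301 in the others (1808, 2187, 2049 and 3441 cuts). Sequence of Thy1 carried by a transgene and that of the gene itself cannot be told apart in these counts. The mouse gene App, for the amyloid precursor protein, was at 539, 549, 558, 593 and 574 CPM. Of the 19 transgene-linked and amyloid genes, 13 lay above 0, Thy1 passed the fold, and the median was 0.05, beside -0.02 for all genes. Bace2, a homologue of beta-secretase, had the lowest ratio of the list, at 6.86, 3.22, 7.27, 7.75 and 6.82 CPM (log2 -0.53).

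Hmgcs1, the synthase that feeds the mevalonate pathway, was at 27.9, 48.0, 34.9, 31.1 and 34.7 CPM (5xFAD to wild type log2 0.69, 0.54 to 0.83), so only the 5xFAD library was high. Msmo1, a later enzyme of cholesterol synthesis, was at 33.6, 56.0, 47.0, 46.1 and 40.2 CPM (0.66, 0.52 to 0.80), with the wild type lowest and 5xFAD highest. Fdft1, squalene synthase, had a log2 ratio of 0.60. A list of 22 sterol metabolism genes, drawn up after these values were seen, had 21 with enough UMIs: all 21 lay above 0, 4 passed the fold (beside 0.123% of all genes higher) and the median was 0.43, beside -0.02 for all genes. The median was 0.48 in core members with 7 past the fold, 0.68 in Xist nuclei with 14 and 0.28 in Y nuclei with 1; of all genes 23 of 9389, 36 of 7544 and 70 of 7604 were higher past the fold in these nuclei. In CA1 nuclei the list's median was 0.97 and in granule nuclei 0.09.

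Hsph1, a heat shock protein that serves as exchange factor for HSP70, was at 30.0, 53.6, 32.2, 30.4 and 32.2 CPM, high in the 5xFAD library alone (log2 0.75, 0.60 to 0.89), but the ratio was 0.15 in Xist nuclei and 1.13 in Y nuclei. All 11 chaperone genes with enough UMIs lay above 0 (median 0.20), with a median of 0.00 in Xist nuclei and 0.18 in Y nuclei. Among the other named genes above the fold, Cpne9, a copine (17.9, 30.3, 32.7, 25.1 and 36.2 CPM), and Manba, lysosomal beta-mannosidase (26.3, 42.7, 39.7, 35.3 and 40.7 CPM), were low in the wild type alone. Synpo2 (log2 1.24) and Lef1 (1.19), a transcription factor of the WNT pathway, rested on few nuclei: 84.6% of Synpo2 UMIs and 81.4% of Lef1 UMIs of the 5xFAD library came from 5 nuclei. Their ratios were 0.41 and 0.68 in core members, 0.07 and 0.13 among Xist nuclei, and 1.39 and 1.94 among Y nuclei. With Tcf7l2 and 5 others they make a list of 8 thalamus and habenula genes, drawn up around them after the values were seen. The 6 with enough UMIs had a median of 0.47 over all members, where 5 lay above 0. It was 0.24 over core members, 0.59 over Y nuclei and 0.10 over Xist nuclei. Ntng1 (237 CPM in wild type, 235 in 5xFAD) and Nwd2 (247 and 253) hardly differed, and CA1 and granule nuclei held both as well. The part of the few nuclei rich in Synpo2 and Lef1 in these ratios was not tested.

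The genes lower in the 5xFAD library were led by Vgll3, a transcriptional cofactor (chr16:65815257-65866368), at 18.3, 0.573, 15.3, 5.76 and 9.25 CPM. The 5xFAD value rested on 8 UMIs, and the ratio to wild type was -2.06 (-2.16 to -1.90), with -2.40 in Xist nuclei, -1.94 in Y nuclei and 0.14 in CA1. L3mbtl4 was at 15.9, 1.79, 10.8, 8.17 and 8.04 CPM, and Pde11a, a phosphodiesterase of cAMP and cGMP, at 53.4, 17.9, 41.5, 35.5 and 41.0 CPM. For all 3 the 5xFAD library was lowest, apart from the other 4, when all members were summed. The ratio of L3mbtl4 was -2.49 in Xist and -0.90 in Y nuclei and that of Pde11a -2.33 and -0.58. In Y nuclei Pde11a was at 21.6, 12.7, 33.0, 12.9 and 7.42 CPM, so there the global MAGL-KO library was lowest and the neuron one level with 5xFAD. Much of the wild-type level came from few nuclei: 5 nuclei gave 47.8% of the Vgll3 UMIs, 49.3% of those of L3mbtl4 and 25.2% of those of Pde11a. In core members the ratios were -2.55, -1.72 and -1.56. Dcn, decorin (log2 -1.12), Col23a1, a membrane collagen (-0.98), and Cd44, the hyaluronan receptor (-0.86), were lower as well. As a list of 6 named after these values were seen, the 6 genes had a median of -1.24, and -1.40 in core members, -1.87 in Xist nuclei, -0.88 in Y nuclei, -0.17 in CA1 and -0.08 in granule nuclei.

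Across the wild-type CA3 nuclei Vgll3 and Pde11a had a correlation of log-scaled UMIs of 0.67 (n = 429 nuclei of 1 library, sharing its depth), and of 0.61, 0.55 and 0.32 in the astrocyte, neuron and global MAGL-KO libraries, in that order. In the 5xFAD library, with 8 Vgll3 UMIs, it was -0.02, too few UMIs to read a relation from. In the wild type Dcn had correlations of 0.06 with Vgll3, 0.10 with L3mbtl4 and 0.32 with Pde11a, and Vgll3 of 0.23 with Col23a1 and 0.57 with Cd44. With 1 library per group, which CA3 nuclei a library sampled and how these genes were regulated in them cannot be told apart. Ttr (log2 -0.91), the main transcript of choroid plexus, was lower beside them, as were Arhgap6 on chromosome X (-0.83; -2.01 in Xist and -0.63 in Y nuclei), Cpne2 (-0.79) and Plscr4 (-0.75). In core members Ttr was at -0.54 and Plscr4 at -0.38, not past the fold, and 5 nuclei gave 42.6% of the wild-type Ttr UMIs. Choroid plexus markers summed to 28.9 CPM in the wild type and 14.9 in the 5xFAD library. Ttr is itself counted in those sums, so they do not stand apart from it. The part of choroid plexus RNA in the Ttr ratio was not tested.

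**Figure D3:**
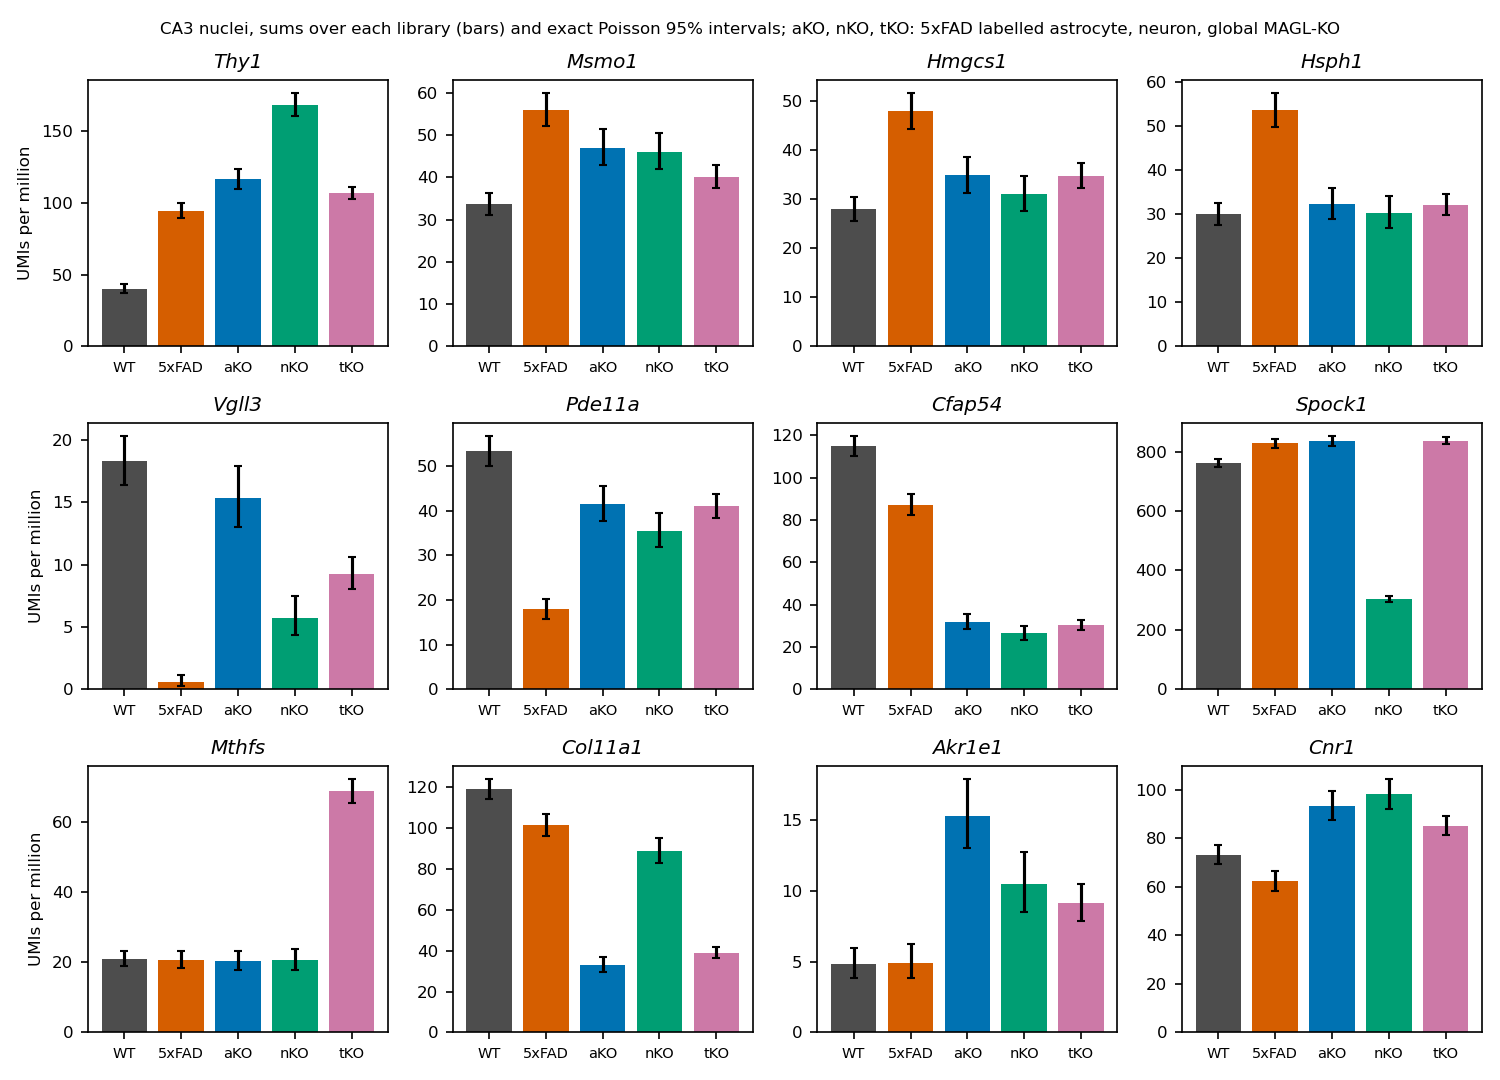
CPM of 12 genes in the CA3 nuclei of the 5 libraries, as bars from 0 with exact 95% Poisson intervals. Thy1 is lowest in the wild type, Vgll3 is near 0 in the 5xFAD library, Cfap54 is low in the 3 libraries labelled MAGL-KO, Spock1 is low in the neuron MAGL-KO library and Mthfs high in the global MAGL-KO library.

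The 3 libraries labelled MAGL-KO were each set against the same 5xFAD library, so a value of that library enters all 3 ratios. In the library labelled astrocyte MAGL-KO 390 genes of 10786 were higher and 63 lower (4.2% in all; 3.62% and 0.584%). In that labelled neuron MAGL-KO 440 of 10732 were higher and 46 lower (4.53%; 4.1% and 0.429%), and in that labelled global MAGL-KO 65 of 11534 were higher and 62 lower (1.1%; 0.564% and 0.538%). The median gene lay at 0.12, 0.11 and 0.02, and the split depended on the scaling: with median-of-ratios size factors it was 166 to 165, 199 to 158 and 58 to 69, and 17 to 37 for 5xFAD against wild type. Genes past the fold in the same direction in Xist and in Y nuclei numbered 194, 170 and 34.

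Cfap54, a protein of motile cilia (chr10:92775619-93081618), was low in all 3 libraries, at 115, 87.1, 31.9, 26.4 and 30.5 CPM. The ratios to 5xFAD were -1.32 (-1.48 to -1.16), -1.55 (-1.72 to -1.38) and -1.38 (-1.50 to -1.25). They were negative in Xist and Y nuclei, but a shared sign there was a condition for naming a gene. In CA1 the ratios were -1.49, -1.56 and -1.31, and in granule nuclei -1.87, -2.38 and -2.0. Its promoter region chr10:93081111-93081967, looked at after the RNA, held 21.3, 22.5, 14.8, 18.9 and 18.4 cut-site CPM, also lower in the 3 libraries. There the counting intervals of the neuron and global MAGL-KO libraries overlapped that of 5xFAD, and that of the astrocyte one did not. Col11a1, a fibrillar collagen chain, was at 119, 101, 33.2, 88.7 and 39.0 CPM, low in the astrocyte (log2 -1.48, -1.63 to -1.32) and global (-1.27, -1.39 to -1.16) MAGL-KO libraries and not in the neuron one. In CA1 nuclei its ratios in those libraries were -0.70 and -0.71, and in granule nuclei 0.49 and 0.29. Npas4, an activity-regulated transcription factor, was at 8.10, 9.60, 3.54, 3.88 and 4.11 CPM, lower in all 3 MAGL-KO libraries (log2 -0.77, -0.72 and -0.68).

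Some genes were high in each of the 3. Col6a1, a collagen VI chain, was at 7.83, 3.94, 15.9, 16.8 and 12.5 CPM (log2 1.23, 1.28 and 0.97). Megf11, a receptor-like adhesion protein of retinal mosaics, was at 33.1, 21.9, 49.4, 70.2 and 53.8 CPM, and its ratio was among the 10 highest in the libraries labelled neuron (1.48, 1.31 to 1.65) and global (1.13) MAGL-KO. A promoter region inside Megf11, chr9:64500871-64501828, held 3.19, 2.6, 5.55, 8.11 and 4.46 cut-site CPM, highest and lowest in the same libraries as the RNA. The region at the start of the gene, chr9:64385198-64386127, held 8.80, 8.14, 7.77, 7.16 and 6.83, lowest in the 3 MAGL-KO libraries. Akr1e1, an aldo-keto reductase, was at 4.83, 4.94, 15.3, 10.5 and 9.11 CPM (log2 1.03, 0.64 and 0.51, the last not past the fold), and its promoter region chr13:4608751-4609654 held 15.0, 14.6, 27.6, 24.8 and 27.1, so wild type and 5xFAD lay together and below the other 3 in both readouts. In core members the Akr1e1 RNA ratios to 5xFAD were 0.89, 0.56 and 0.45, past the fold in the astrocyte MAGL-KO library only. Vgll3, L3mbtl4 and Col23a1 were also above the 5xFAD library in all 3, in which the 5xFAD library was the low one, as given above. Cnr1 was at 73.1, 62.3, 93.3, 98.0 and 85.1 CPM, above both the wild type and 5xFAD in the 3 libraries. Its log2 ratios to 5xFAD were 0.55 (0.42 to 0.67), 0.61 (0.49 to 0.74) and 0.42 (0.31 to 0.53). Only the neuron value passed the fold, a log2 of 0.585, and its interval reached below that. The median of all genes in that comparison was 0.11 with CPM and -0.05 with size factors, so the Cnr1 call may depend on the scaling. The 11 endocannabinoid genes together had medians of 0.07, 0.12 and 0.01, near those of all genes, and of -0.13, -0.07 and -0.01 with size factors.

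The library labelled astrocyte MAGL-KO held more of the zinc finger gene Zfp46, at 11.5, 6.87, 25.3, 15.5 and 9.44 CPM (log2 1.35, 1.12 to 1.57; 1.22 in CA1 and 1.47 in granule nuclei). Trhr, the receptor of thyrotropin-releasing hormone (8.90, 4.08, 17.9, 12.3 and 9.35 CPM, log2 1.33), and Nr2f2, the nuclear receptor COUP-TFII (12.1, 5.73, 21.9, 15.7 and 12.1 CPM, 1.33), were highest there and lowest in 5xFAD. Lower were Rgs20, a regulator of G protein signalling (22.4, 24.6, 10.0, 24.9 and 12.7 CPM, log2 -0.98), and Slco1c1, a thyroxine transporter of astrocytes and endothelium (-0.85). In core members the ratios of Rgs20 and Slco1c1 were 0.011 and 0.025. Astrocyte markers over all members summed to 465 CPM in the 5xFAD library and 349 in this one, most of both sums from Slc1a2. The part of astrocyte RNA in these ratios was not tested.

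Spock1, high in CA3 in the other libraries, was low in the library labelled neuron MAGL-KO. The gene (chr13:57421195-57908332, minus strand) was at 304 CPM there and at 762 to 836 CPM in the other 4 libraries (log2 -1.43, -1.49 to -1.37). In Xist nuclei it was at 443 CPM against 860 to 952 elsewhere, and in the 38 Y nuclei at 50.5 CPM against 885 to 942. In CA1 nuclei Spock1 was at 52.2 CPM against 107 to 153, and in granule nuclei at 12.1 CPM, within the 10.6 to 34.4 of the rest. Its chromatin differed less: the promoter region chr13:57907895-57908749 held 20.2, 19.7, 11.9, 17.2 and 17.8 cut-site CPM, and the 43 regions in the gene body together 250, 276, 269, 237 and 264. The neuron MAGL-KO library was lowest over the gene body and second lowest at the promoter.

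The same library was high for Slc7a11, the cystine and glutamate exchanger xCT, at 5.79, 4.65, 4.82, 23.3 and 3.51 CPM (log2 1.55, 1.31 to 1.77; 1.48 in Xist and 1.80 in Y nuclei, 0.85 in CA1 and 1.54 in granule nuclei). Of those UMIs 55.9% came from 5 nuclei, and in core members the level was 8.41 CPM and the ratio 1.17. Sorcs3, a sorting receptor, was at 190, 149, 159, 327 and 233 CPM, with a ratio of 1.74 in Xist and 0.23 in Y nuclei. Nrg3os, annotated antisense to Nrg3, was at 129, 116, 232, 259 and 118 CPM, high in the astrocyte and neuron MAGL-KO libraries; reads from Nrg3 may share its place. Ptgds, prostaglandin D synthase, had the highest ratio (1.82), but 75% of its UMIs there came from 5 nuclei and the ratio in core members was 0.31. Camk2d was lower, at 76.1, 81.7, 74.3, 48.9 and 82.5 CPM (log2 -0.69, -0.83 to -0.54), as was Chst9, a sulfotransferase, at 146, 145, 85.0, 84.3 and 164 CPM (-0.75), the latter low in the astrocyte MAGL-KO library too.

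Mthfs, an enzyme of folate metabolism (chr9:89210676-89377713), stood out in the global MAGL-KO library and was level in the other 4, at 21.0, 20.8, 20.3, 20.6 and 68.8 CPM. The ratio was 1.52 (1.36 to 1.67), 1.94 in Xist and 1.24 in Y nuclei, 1.27 in CA1, 1.47 in granule nuclei and 1.52 in core members. Its promoter region chr9:89210956-89211810 held 4.86, 5.55, 4.72, 6.84 and 9.01 cut-site CPM, highest in the same library. The promoter region beside it, chr9:89210106-89210940, held 4.69, 5.31, 5.82, 3.02 and 3.15, so the pair went opposite ways there (log2 0.61 and -0.60). Htr2c, the serotonin 2C receptor on chromosome X, was at 95.9, 60.9, 84.1, 86.2 and 114 CPM (log2 0.85, 0.75 to 0.96; 0.47 in Xist and 0.52 in Y nuclei); in core members it was at 61.7 CPM in 5xFAD and 84.0 in this library (0.42), not past the fold. Several genes of astrocytes were lower in this library: Apoe at 41.8, 44.2, 31.2, 55.3 and 16 CPM (log2 -1.23), Slc1a3 (-0.89) and Gja1 (-0.84). In core members Apoe was at -0.14, Slc1a3 at -0.21 and Gja1 at 0.00. Astrocyte markers over all members summed to 465 CPM in the 5xFAD library and 336 in this one. Most of both sums came from Slc1a2, and Slc1a3 and Gja1 are counted in them. The part of astrocyte RNA in these ratios was not tested.

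Ribosomal protein genes with enough UMIs (74 of 82) all lay above 0 in the astrocyte MAGL-KO library (median 0.44, 11 past the fold) and in the neuron MAGL-KO library (0.37, 7 past), and 18 did in the global one (-0.07), beside medians over all genes of 0.12, 0.11 and 0.02; of all genes 3.62% and 4.1% were higher past the fold in the first and second of these libraries. Respiratory chain genes (23 of 24) had medians of 0.43, 0.34 and -0.06, with 22, 22 and 6 above 0 and 2, 2 and 0 past the fold. With size factors the ribosomal medians were 0.30, 0.23 and -0.10 and the respiratory medians 0.27, 0.21 and -0.08. The 7 immediate early genes with enough UMIs of 12 listed had medians of -0.46, -0.24 and -0.34, with 0, 1 and 0 above 0. Sterol genes had medians of -0.12, -0.23 and -0.16, with 7 of 21, 1 of 20 and 1 of 22 above 0, against the 5xFAD library in which they were high.

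Over all genes the medians were -0.02 for 5xFAD against wild type and 0.12, 0.11 and 0.02 for the astrocyte, neuron and global MAGL-KO libraries against 5xFAD. The 7 kainate receptor genes had medians of 0.03 for 5xFAD against wild type and -0.14, -0.08 and 0.00 for those 3 libraries, with 0 past the fold. AMPA and NMDA receptor genes had -0.09, -0.01, 0.02 and 0.05, also with 0. Of all genes 0.493%, 4.2%, 4.53% and 1.1% were past the fold in these comparisons, so a count of 0 in lists this short says little about them. Of the metabotropic receptor genes (-0.02, -0.20, -0.27 and -0.04, with 1 of 6 above 0 in the astrocyte and in the neuron comparison), Grm3 was at 80.8, 79.8, 50.4, 55.8 and 49.3 CPM, with ratios of -0.61, -0.48 and -0.64. Of the scaffold genes (-0.02, 0.01, 0.01 and 0.10), Homer1, the scaffold that links metabotropic receptors to calcium stores, was at 447, 470, 301, 332 and 383 CPM, lower in all 3 MAGL-KO libraries (-0.63, -0.50 and -0.29) and past the fold in the astrocyte one. Mossy fibre and adhesion genes had medians of -0.11, 0.05, 0.05 and 0.07, axon guidance genes 0.06, -0.03, -0.02 and 0.04, potassium channel genes 0.02, -0.09, 0.04 and 0.01, and calcium and sodium channel genes -0.02, 0.02, 0.05 and 0.02. The sign of several of these medians depended on the scaling. With size factors all 8 lists lay below 0 in the astrocyte and neuron comparisons, from -0.14 for mossy fibre genes to -0.41 for metabotropic genes in the astrocyte one and from -0.15 for calcium and sodium channel genes to -0.47 for metabotropic genes in the neuron one, beside -0.04 and -0.05 for all genes.

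**Figure D4:**
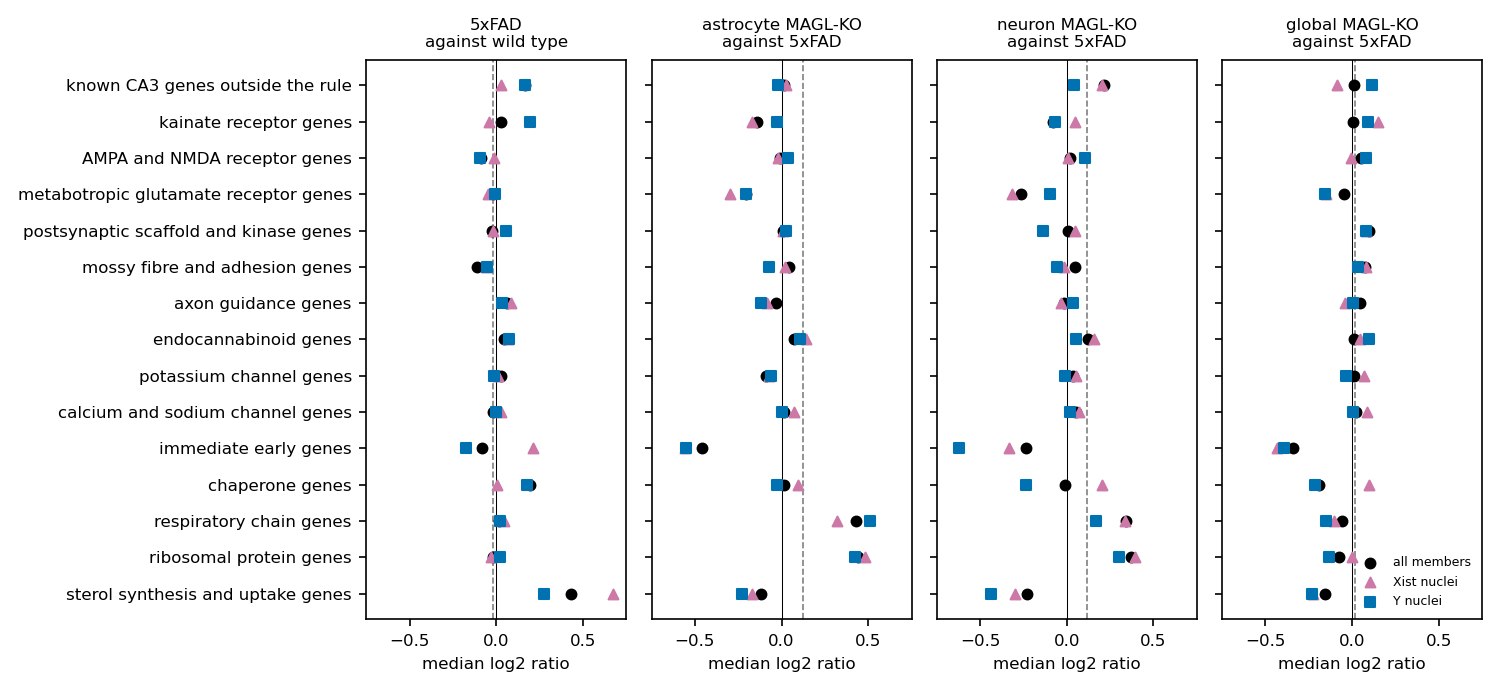
Median log2 ratio of the genes of 15 lists in the 4 comparisons, for all CA3 nuclei, Xist nuclei and Y nuclei; the dashed line is the median of all genes. Ribosomal and respiratory chain genes lie to the right of the line and immediate early genes to the left in the comparisons of the astrocyte and neuron MAGL-KO libraries with 5xFAD.

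The CA3 nuclei also varied among themselves within each library. Overdispersion, the variance beyond Poisson counting relative to the squared mean, had a median of 0.11 over 6674 genes. The genes with most of it were Erbb4, the neuregulin receptor of inhibitory neurons (44.1, the median over libraries), Grik1 (27.2), the neurexophilin gene Nxph1 (22.5), Ptprm and Sox2ot. Sox6, Rorb and Apoe were also among the 16 highest, and their correlations with the astrocyte score across nuclei were 0.78, 0.82 and 0.83 (median of 5 libraries, 1901 nuclei, which share depth and library). Among the 1237 core members the list became another, with Tshz2, Kcnmb2, Tox, Pde11a, Kctd8, Tmem132d, Sorcs1, Dpp10 and Il1rapl2 behind Erbb4. Tshz2 and Tox had a correlation of 0.57, Kctd8 and Il1rapl2 of 0.53, and Kcnmb2 and Pde11a of 0.39. Adamts18, a secreted protease, had a correlation of 0.61 with the mossy cell score and Kctd8, a GABA-B receptor auxiliary subunit, of 0.44. Dpp10, an auxiliary subunit of Kv4 channels, was at 327, 314, 266, 299 and 648 CPM in core members, about level in 4 libraries and high in the global MAGL-KO library.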

How the data were processed

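Nuclei were isolated from mouse hippocampus and carried through the 10x multiome protocol, per the labels' protocols; reads were processed with Cell Ranger ARC 2.0.0 on mm10 and with Seurat, per the submitters' processing notes. The authors deposited 1 matrix per library with raw counts: UMIs per gene and cut sites per peak for each nucleus. No nucleus beyond the 1000-gene minimum was removed. UMIs were summed over the CA3 nuclei of a library, scaled to CPM and compared as log2 ratios with a pseudocount of 5 CPM, without a test. Intervals are exact Poisson or binomial at 95%. Peaks of the 5 libraries were merged; the 129601 merged regions present in all 5 (of 220604) were summed by class, and 128706 passed filterByExpr and were tested with edgeR 4.0.16 (TMM, library block, all 3 classes in 1 fit, Benjamini-Hochberg 0.05). Here the 5 libraries serve as replicates, although each is a different genotype. On simulated counts with 200 of 20000 regions changed in CA3, this fit recovered 46 of 50 regions changed 2-fold. Far larger shares of regions were called in the data, so the simulation does not check the fit in that setting. A promoter region lies within 500 bases of a start site. Of 32285 gene IDs, 32158 matched GENCODE vM21, and 99.5% of those lay at an annotated 5′ end within 1 base.

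The members and gene lists were chosen with earlier results of these data known. Named genes have at least 100 UMIs, at least 0.5 of their CPM over all nuclei, and the same sign in Xist and Y nuclei; the 10 highest and 10 lowest ratios were taken, leaving out genes of the mitochondrion and the Y chromosome, Xist, Tsix and unnamed gene models; other genes of chromosome X were kept. For RNA identity the 12 highest and 6 lowest were taken, for variation 16, and for chromatin the 5 highest and 5 lowest. Motifs were to be counted in 300 bases around region centres; without a genome sequence they were counted in RefSeq promoter windows of 250 bases. Tools were Python 3.11.15, numpy 2.4.6, scipy 1.17.1, pandas 2.3.3, R 4.3.3 and, as an alternative, DESeq2 1.42.0. Some named genes are not reported here.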

Additional observations from a re-analysis of the deposited data

Results flagged for a closer look

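Of 30 sets of 5 library values examined for a library far from the other 4, 4 stood out. The cut-off used flags about 1 in 20 sets of normally distributed values. These regions were picked for extreme differences between classes and several values lie at or near 0, so that rate does not hold here. Where 4 libraries hold 0, any count in the fifth is flagged. The 4 are given as a description. In the region in an intron of Agbl1, CA1 nuclei of the library labelled astrocyte MAGL-KO held 1.01 cut-site CPM, with 0 in the other 4 libraries. In the region nearest to Calcrl, CA3 nuclei of the same library held 11.2 cut-site CPM, against 7.96 to 8.30 in the others. In the region nearest to Clec2d, CA1 nuclei of that library held 0.804 cut-site CPM, against 0 to 0.227 in the others. In the exon region of Epb41l4b, CA3 nuclei of the wild-type library held 1.59 cut-site CPM, against 0.175 to 0.472 elsewhere.

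Plpp3, a lipid phosphate phosphatase, moved in opposite directions in CA3 and CA1 nuclei when the global MAGL-KO library was set against 5xFAD: the log2 ratio was -0.97 in CA3 nuclei and 0.64 in CA1 nuclei. The difference was not tested. In core members the CA3 ratio was -0.25. Astrocyte markers in all CA3 nuclei summed to 465 CPM in the 5xFAD library and 336 in this one, most of both sums from Slc1a2. The part of astrocyte RNA in the Plpp3 ratio was not tested.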

How the results depend on the processing

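With 1 library per group the genotype comparisons carry no replicate error, and counts of genes past the fold depend on the settings. For 5xFAD against wild type the 56 genes became 177 with a pseudocount of 1 CPM, 98 with a CA3 score of at least 1.5, 166 in Xist nuclei, 118 in Y nuclei and 110 with the mean of per-nucleus CPM. The 453 genes of the astrocyte MAGL-KO library became 1118 with a pseudocount of 1 CPM and 260 with a minimum of 300 UMIs, and the 486 of the neuron MAGL-KO library 1135 and 270. The 127 of the global MAGL-KO library became 314 with that pseudocount, 204 in Xist nuclei, 212 in members below 40000 UMIs and 243 with per-nucleus means. A CA3 score of at least 1.5 gave CA3 shares of 3.43%, 3.26%, 2.71%, 2.64% and 4.19%, with the global MAGL-KO library then highest. In core members, an alternative chosen after seeing the data, 3 of the log2 ratios by which genes were named changed sign: Rgs20 (0.011) and Slco1c1 (0.025) in the astrocyte MAGL-KO library, and Tcf7l2 (0.055) in the global one. Ratios of named genes in other comparisons did so too, among them Synpo2 (0.19), Lef1 (0.02) and Rgs20 (0.66) in the global MAGL-KO library and Rgs20 (-0.42) for 5xFAD against wild type. The cause was not tested. Over the named genes 355 values stayed within the counting interval, 344 moved and 3 reversed; over the lists' medians 595 stayed and 17 moved. The chromatin counts stayed within 1.5 times under each alternative run: 47404 to 49430 regions against CA1 and 75733 to 78548 against granule nuclei with 1 library left out, and 52735 and 81514 without the library block. No paired analysis of the genotype groups was possible because a group has only 1 library, numbered without a partner in another group. The chromatin test did pair the classes, with the library as a block.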
